A study of Mus musculus with 6 samples.

Results

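Guanylate cyclase C (Gucy2c), the genes around it in the cyclic GMP (cGMP) pathway and the chloride channel Cftr are described here in livers of mice with a Dicer deletion driven by the albumin promoter. The 7 genes, Gucy2c, Npr1, Npr2, Prkg1, Prkg2, Pde5a and Cftr, were picked by symbol from 50600 genes in the tables. They were chosen from earlier results of the same data around the higher Gucy2c in Dicer LKO, so the contrast between the genotypes is given for them as a description with no test. The 3 Dicer LKO samples carried Dicerloxp/loxp;Alb-cre and the 3 control samples Dicerloxp/loxp, so both groups shared the floxed alleles. All were whole C57BL/6 livers about 1 month old. Cre under the albumin promoter is known to act in hepatocytes and, through their shared precursors, can also act in bile duct cells. In which cells Dicer was lost was not measured here. Nothing in the labels shows that samples of a group came from separate animals, so any p-value measures the spread between these samples.

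Guanylate cyclase C is a membrane receptor, best known from the intestine, that makes cGMP inside the cell when the peptides guanylin or uroguanylin bind outside. In the gut, cGMP activates its kinase Prkg2, which phosphorylates the Cftr channel so that chloride and fluid leave the cell, and the same receptor is the target of a bacterial heat-stable toxin that causes diarrhoea. Npr1 and Npr2 are sister receptors for natriuretic peptides, Prkg1 is the kinase best known from smooth muscle, and Pde5a breaks cGMP down. In the liver, Cftr is known as an apical channel of bile duct cells, where it takes part in bile secretion.

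The libraries held between 22257541 and 25049749 expected counts in Dicer LKO and between 14141973 and 22152506 in controls. Dicer1 counts, taken over the whole gene, were 631, 654 and 612 in Dicer LKO, against 944, 1442 and 880 in controls. In CPM (counts scaled to a common library size and composition) Dicer1 averaged 28.2 ± 3.46 in Dicer LKO and 56.0 ± 13.4 in controls (SD, n = 3 each), lower in all 3 Dicer LKO libraries, without passing the threshold (log2 fold change −0.99, adjusted p = 0.0622, edgeR's quasi-likelihood test). The hepatocyte markers were present in every library: their summed TPM (transcript abundance corrected for gene length and scaled to a fixed total) ranged over 26090 to 35970 in Dicer LKO and 23440 to 40830 in controls. Control 3 stood apart, with the lowest total, 10.2% of its counts on mitochondrial genes and 3863 counts of the muscle creatine kinase gene Ckm, against 0 to 8 in the other 5 libraries, and results that move without it are given below.

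The promoters and 3′ untranslated regions (UTRs) of the genes show what they do and do not share in sequence. Dicer cuts the precursors of microRNAs, which pair through their seed (bases 2 to 8) with UTRs, so the UTRs were searched for perfect matches of 7 bases to 22 miRNAs found in the RefSeq table of 24 named. The 581-base UTR of Gucy2c held no match to any of the 22, and 35.0% of the 2118 UTRs within 20% of its length held none either. The search says nothing of miRNAs outside these 22. The 1735-base UTR of Cftr held a single match, for miR-148a-3p at base 28, a site also present in the 529-base UTR of Npr1 and in 12.73% of 21013 UTRs searched. Npr2, with 378 bases, matched only miR-16-5p, whose site stands in 20.32% of UTRs. These sequences are shown because Cftr and Npr2 had the largest differences between the genotypes beside Gucy2c. Capitals mark the seed in the miRNAs (RefSeq, GRCm38.p6) and its match in the UTR sites (GENCODE M21, GRCm38). The sites lie at chr6:18321050-18321071 (plus strand, Cftr), chr3:90450658-90450679 (minus strand, Npr1) and chr4:43650988-43651009 (plus strand, Npr2).
miR-148a-3p: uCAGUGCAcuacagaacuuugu
Cftr site: aagcaactcagTGCACTGagtc
Npr1 site: ttcccacacagTGCACTGagga
miR-16-5p: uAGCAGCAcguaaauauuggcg
Npr2 site: cggccatcttcTGCTGCTggta

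The 2 longest UTRs, of Prkg1 and Pde5a, held the most matches. Pde5a, with 4042 bases, held 9 sites for 7 of the miRNAs, Prkg1, with 4749 bases, 6 sites for 4 of them, and Prkg2, with 2237 bases, 2 sites for 2. Set beside the expression results below, Gucy2c was higher in Dicer LKO with 0 matches, Cftr was higher with 1, Npr2 was lower with 1 and Npr1 was lower in every library with 2. Prkg1 with 6, Pde5a with 9 and Prkg2 with 2 overlapped between the genotypes. A match to a seed is a description of the letters and not a tested site.

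RefSeq promoter windows (250 bases before to 50 after a start) were found for 5 of the 7 genes, Cftr, Npr1, Npr2, Pde5a and Prkg1. The Cftr window is shown because its gene had the largest fitted fold change of the 7. It spans chr6:18170437-18170736 on the plus strand (GRCm38.p6) and is 71.3% G and C. Capitals mark ATTGG, the CCAAT box read on the other strand, and TGACATCA, a variant of the cAMP response element.
Cftr promoter: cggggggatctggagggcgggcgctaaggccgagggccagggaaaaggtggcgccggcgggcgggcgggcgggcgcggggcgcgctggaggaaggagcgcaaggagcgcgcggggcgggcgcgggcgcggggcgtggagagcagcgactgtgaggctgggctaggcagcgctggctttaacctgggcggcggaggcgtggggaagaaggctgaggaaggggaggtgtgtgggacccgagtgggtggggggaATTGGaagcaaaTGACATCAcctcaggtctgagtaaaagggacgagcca

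On either strand, TGACATCA stood in 3.62% of the 32851 windows and CCAAT in 37.41%. The Cftr window also held the GC box GGGCGG at 6 places, a motif found in 35.66% of windows, and none of the other 4 motifs searched: a TATA box (TATAAA), the consensus cAMP response element (TGACGTCA), an HNF4 site (CAAAGTCCA) and a CDX site, written as TTTATNG. On either strand these stood in 13.62%, 1.79%, 0.47% and 10.91% of the windows, in that order. The windows of Npr1 and of the upstream start of Prkg1 held ATTGG too, whereas the Npr2 window held none of the 7 motifs. Cftr, which was higher, and Npr2, which was lower, therefore shared none of the motifs searched.

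In the fit over all genes, 2 of the 7 genes, Gucy2c and Cftr, were called higher in Dicer LKO and 1, Npr2, lower, at an adjusted p under 0.05 (edgeR). Over the 14314 genes tested, 0.741% were called higher, 0.552% lower and 1.29% in either direction. Gucy2c and Cftr were higher in every Dicer LKO library than in any control, as were 12.7% of all genes tested, and Npr1 and Npr2 lower in every one, as were 15.4%. Since the genes were chosen from this contrast, nothing is read from these counts. The low-count filter kept 6 of the 7 genes and removed Prkg2.

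**Figure D1:**
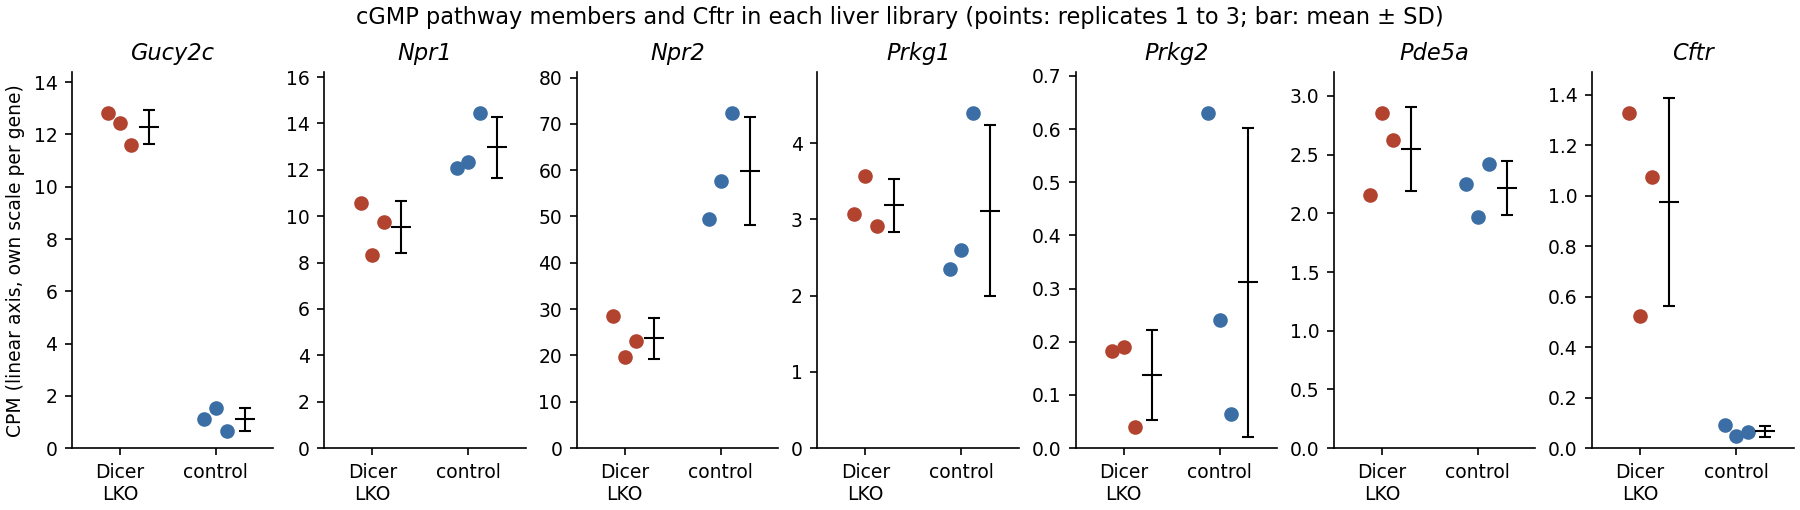
Level of each of the 7 genes (CPM, linear axis, own scale per gene) in the 3 Dicer LKO and 3 control libraries, with points for the libraries in replicate order and bars for mean ± SD. Gucy2c and Cftr lie higher in all 3 Dicer LKO libraries, Npr2 and Npr1 lower, and the groups overlap for Prkg1, Prkg2 and Pde5a.

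The peptides that switch on guanylate cyclase C were almost absent. Guanylin (Guca2a) had 0, 1 and 0 counts in Dicer LKO, against 0 in all 3 controls, and uroguanylin (Guca2b) had 0, 0 and 1 in Dicer LKO, against 0 in all 3 controls. A count of 0 allows up to 0.120 to 0.143 CPM per library in Dicer LKO and 0.135 to 0.191 in controls (3 counts, counting error only), so lower levels were not detectable at this depth. Nppc, the ligand of Npr2, was at 0 in all 6 libraries. Nppa, the atrial peptide that binds Npr1, had 0, 0 and 93 counts in Dicer LKO, against 85, 83 and 78 in controls. The same 2 Dicer LKO libraries, replicates 1 and 2, also had 0 counts of the heart muscle genes Myh6, Myl2 and Actc1, which had 82.7, 15 and 34 expected counts in Dicer LKO 3. The controls had 76.5 to 120 expected counts of Myh6, and the part of heart tissue in the Nppa values was not tested.

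Gucy2c was higher in Dicer LKO. It maps to chr6:136697284-136781765 on the minus strand (GRCm38) and overlaps no other annotated gene. Its counts were 280, 261 and 291 in Dicer LKO, against 25, 32 and 10 in controls, and its TPM 2.31, 2.08 and 2.17 in Dicer LKO, against 0.22, 0.29 and 0.13 in controls. Every Dicer LKO library lay far above every control, and the 3 Dicer LKO libraries differed little among themselves. The mean was 12.3 ± 0.637 CPM in Dicer LKO and 1.10 ± 0.450 CPM in controls (SD, n = 3 each), a log2 fold change of 3.45 with a standard error (SE) of 0.28. The summed counts, 832 in Dicer LKO and 67 in controls, gave a ratio of 10.7 after scaling, with an exact 95% counting interval of 8.36 to 13.98. Leaving out each library in turn gave log2 fold changes of 3.22 to 3.78, the lowest without control 3.

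The sister receptors were lower in Dicer LKO. Npr2, the receptor of C-type natriuretic peptide, had 620, 411 and 580 counts in Dicer LKO, against 1098, 1201 and 1136 in controls. Its TPM was 7.15, 4.57 and 5.97 in Dicer LKO, against 13.65, 15.0 and 20.46 in controls, with no overlap. The log2 fold change was −1.34 (SE 0.19), and −1.16 without control 3, the highest of the controls in TPM. Npr2 dropped below the call threshold in that fit and without each other library except control 1. Npr1, the receptor of atrial and brain natriuretic peptides, had 1.93, 1.44 and 2.08 TPM in Dicer LKO, against 2.28, 2.46 and 3 TPM in controls. The Npr1 groups did not overlap but lay close, the highest Dicer LKO library and the lowest control differing by less than the spread within each group, and its log2 fold change of −0.44 (SE 0.16) was not called. An annotated antisense gene overlaps Npr1 (Gm16048) and another Npr2 (Gm12473), and since the strand setting is not given, their reads cannot be told apart.

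Per length, the 3 receptors made up a different mix in the 2 genotypes. Gucy2c took 20.3%, 25.7% and 21.2% of their summed TPM in the Dicer LKO libraries, against 1.36%, 1.63% and 0.551% in the controls. Npr2 remained the most abundant receptor in all 6, with 62.8%, 56.5% and 58.4% in Dicer LKO, against 84.5%, 84.5% and 86.7% in controls. Gucy2c and Npr1 were near each other in Dicer LKO, where Gucy2c was higher in all 3 libraries, and Npr1 exceeded Gucy2c in all 3 controls. The sum of the 3 receptors was lower in Dicer LKO, at 11.39, 8.09 and 10.22 TPM, against 16.15, 17.75 and 23.59 TPM in controls, the deficit in Npr2 exceeding the gain in Gucy2c. In bulk tissue, fewer cells of a type and less RNA per cell cannot be told apart, here as in the other results.

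**Figure D2:**
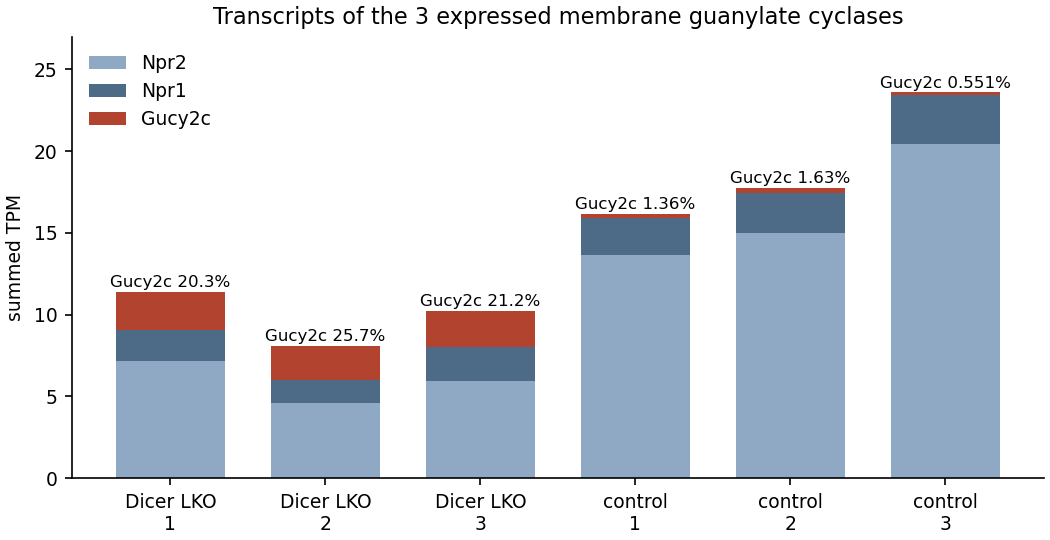
Summed TPM of Npr2, Npr1 and Gucy2c in each library (stacked bars from 0), with the share of Gucy2c printed above. Gucy2c takes 20.3% to 25.7% of the sum in Dicer LKO and 0.551% to 1.63% in controls, while the whole bar is shorter in all 3 Dicer LKO libraries.

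Neither of the kinases that cGMP activates separated the genotypes, and the low counts of Prkg2 cannot show that it did not differ. Prkg2, the kinase that acts on Cftr in the gut, had 4, 4 and 1 counts in Dicer LKO, against 14, 5 and 1 in controls, and was too low to be tested. Its summed counts of 9 in Dicer LKO and 20 in controls gave a scaled ratio of 0.389 (exact 95% counting interval 0.156 to 0.894), but 14 of the control counts came from 1 library and the groups overlapped. Prkg1 had 67, 75 and 73 counts in Dicer LKO, against 52, 54 and 69 in controls. The groups overlapped in CPM, with control 3 highest at 4.40, and the log2 fold change was 0.04 (SE 0.29). Its direction was not settled: leaving out each library gave −0.13 (without control 1) to 0.39 (without control 3). Controls 1 and 2, at 2.34 and 2.59 CPM, lay below every Dicer LKO library (2.91 to 3.57 CPM), so in CPM the overlap came from control 3 alone. In TPM, control 2 (0.73) also lay within the Dicer LKO range (0.69 to 0.77).

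Pde5a, the phosphodiesterase that removes cGMP, had 47, 60 and 66 counts in Dicer LKO, against 50, 41 and 38 in controls. The groups overlapped, with 2.55 ± 0.359 CPM in Dicer LKO and 2.22 ± 0.229 CPM in controls (SD, n = 3 each). The log2 fold change was 0.20 (SE 0.24), and the sign turned to −0.040 with limma on TPM.

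Cftr was low in all livers and higher in Dicer LKO. It had 29, 11 and 27 counts in Dicer LKO, against 2, 1 and 1 in controls, and 0.15, 0.05 and 0.16 TPM in Dicer LKO, against 0.01 in each control. The lowest Dicer LKO library, replicate 2, lay well under the other Dicer LKO libraries and above every control. The scaled ratio of the summed counts, 67 in Dicer LKO and 4 in controls, was 14.5, with an exact 95% counting interval of 5.40 to 54.7. The fitted log2 fold change was 3.74 (SE 0.59). Cftr passed the low-count filter only through its Dicer LKO libraries, and its call was lost with library totals in place of TMM scaling, with the heart muscle term, with limma on TPM, and without each library except Dicer LKO 2. An antisense gene (Gm15592) and a pseudogene (Gm15595) overlap Cftr at chr6:18170687-18322768.

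**Figure D3:**
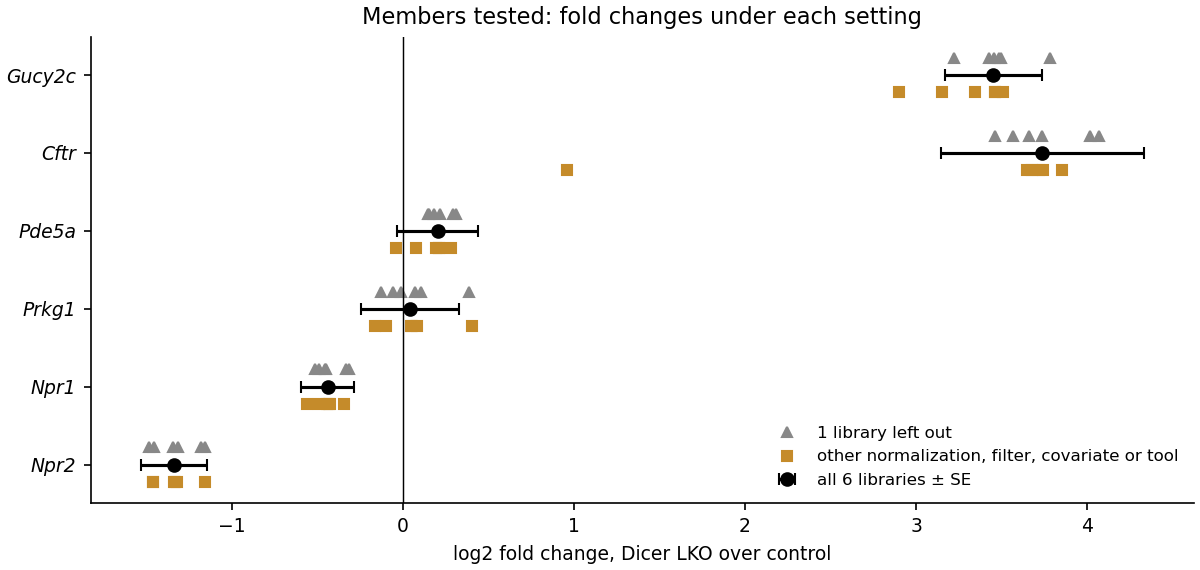
Log2 fold change, Dicer LKO over control, of the 6 genes that passed the filter: black circles with SE for all 6 libraries, grey triangles for fits with 1 library left out, and ochre squares for other settings. Gucy2c stays between 2.90 and 3.78 and Npr2 between −1.48 and −1.16, while Cftr drops to 0.96 in limma on TPM, where a pseudocount of 0.1 exceeds its control level, and Prkg1 and Pde5a lie on both sides of 0.

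Within Dicer LKO, replicate 2 had the lowest Cftr, at 0.524 CPM against 1.33 in replicate 1 and 1.08 in replicate 3. Its Gucy2c, at 12.4 CPM, lay between 12.8 and 11.6, but in TPM it was the lowest of the 3 for both genes. The same replicate was the lowest of the 3 for Npr1 and Npr2 and the highest for Prkg1 and Pde5a in CPM. Over all 6 libraries, the genes most like Gucy2c in log2 CPM were Gdf2, Ift74, Ormdl2, Marveld3 and Fam49b (Pearson's r of 0.988 to 0.995 among 11724 genes). Those most like Cftr were Ptk7, Ntrk2, Necap2, Arl2bp and Nemp2 (0.978 to 0.989). No gene was in both groups of 5, and since the 6 libraries fall into 2 genotypes, the values are a description only.

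The wider pathway was followed through 5 lists. Of 89 other genes of cGMP signalling and fluid secretion, 59 were tested, and 0 were called higher or lower by edgeR, 14 having an unadjusted p under 0.05, as had 21.0% of all genes tested. The share called over all genes was 1.29%, so the absence of calls among 59 is near the background. DESeq2 called 3 of them higher and 0 lower, beside 3.12% higher and 3.93% lower of the 15791 genes it gave an adjusted p. Their median log2 fold change was −0.02, beside −0.01 over all genes tested. All 3 libraries of Dicer LKO lay above the controls for 8 of the 59 and below them for 9, beside 12.7% and 15.4% of all genes tested, so these counts are near the background too. The remaining 30 were too low to be tested, 9 of them at 0 in every library.

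Among ligands and the enzymes that make or limit the signal, 6 were tested and 2 had a positive log2 fold change. The most abundant were Arg1, which competes with nitric oxide synthases for arginine (597 ± 83.1 TPM in Dicer LKO and 484 ± 136 TPM in controls), and Furin, a protease that processes natriuretic peptide precursors (24.8 ± 3.58 TPM in Dicer LKO and 34.6 ± 9.38 TPM in controls; SD, n = 3 each). Both overlapped between the genotypes. Of the other cyclases and the clearance receptor, 4 were tested. Gucy1b3 and Gucy1a3, the subunits of the nitric oxide receptor, had 2.09 ± 0.487 and 1.79 ± 0.139 TPM in Dicer LKO, against 1.56 ± 0.104 and 1.67 ± 0.162 TPM in controls, and neither was called. Gucy1b3 was higher in all 3 Dicer LKO libraries.

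The other phosphodiesterases numbered 18 tested, 6 of them with a positive log2 fold change and a median of −0.10. Pde3b and Pde9a, a dual and a cGMP-specific enzyme and the more abundant by the rule for named genes, had 11.9 ± 0.512 and 5.56 ± 0.653 TPM in Dicer LKO, against 13.6 ± 2.96 and 5.82 ± 3.22 TPM in controls. Of 10 tested effectors and exporters of cGMP, 6 had a positive log2 fold change. Gtf2i and Ppp1r12a, both known substrates of cGMP-dependent kinase, had 12.3 ± 1.45 and 9.94 ± 1.51 TPM in Dicer LKO, against 17.4 ± 3.22 and 10.8 ± 1.26 TPM in controls (SD, n = 3 each). None of these 4 was called.

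Among Cftr regulators and fluid secretion transporters, 21 were tested and 11 had a positive log2 fold change. Slc9a3r1, the scaffold that binds the tail of Cftr, and the water channel Aqp1 had 48.7 ± 5.49 and 25.7 ± 5.17 TPM in Dicer LKO, against 64.5 ± 18.0 and 25.2 ± 5.23 TPM in controls. Slc9a3, the sodium-proton exchanger that cGMP inhibits in the gut, was at 0 in every library. The potassium channel genes Kcnn4 and Kcne3, singled out after their values were seen, lay nearest to the threshold. Kcnn4 had 30, 22 and 54 counts in Dicer LKO, against 10, 7 and 5 in controls (log2 fold change 2.02, adjusted p = 0.0624, edgeR). Kcne3 had 28, 42 and 39 counts in Dicer LKO, against 14, 7 and 7 in controls (1.75, adjusted p = 0.0684). Neither overlapped between the genotypes, and DESeq2 called both, with adjusted p-values of 0.0132 and 0.0203, and also Rgs2, a cGMP kinase target that limits G protein signals (0.0265).

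**Figure D4:**
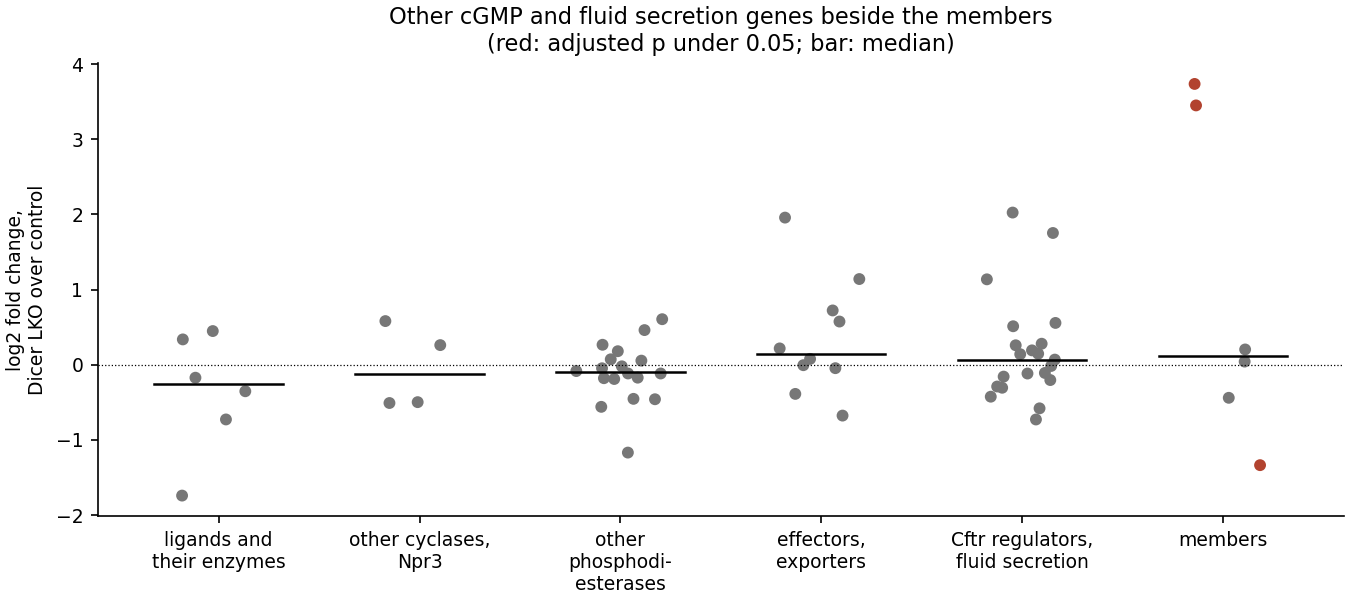
Log2 fold change, Dicer LKO over control, of each tested gene in the 5 lists and of the 6 tested members (right), with bars for medians and red for an adjusted p under 0.05. The 59 listed genes centre on −0.02 with none in red, and Gucy2c, Cftr and Npr2 are the red points.

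Markers of bile duct cells moved with Gucy2c and Cftr. Of 25 such markers in the tables, 20 were tested, 16 had a positive log2 fold change and 5 were called higher, with a median of 1.36. Over all genes tested, 0.741% were called higher and the median was −0.01. The 4 with the largest changes among those called were Cd24a (2.63), Spp1 (2.51), Epcam (2.48) and Slc5a1 (2.41). Epcam, an adhesion molecule of duct epithelium, had 125, 78 and 197 counts in Dicer LKO, against 33, 18 and 11 in controls, so it was lowest in Dicer LKO 2, as Cftr was. Krt19 and Krt7, the keratins that define duct cells, had scaled count ratios of 4.53 and 5.002 without being called, whereas Sox9, which encodes a transcription factor of duct cells, had a ratio of 0.724 with overlapping groups.

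The size of Gucy2c relative to duct markers depended on which markers were summed. Over all 25, the TPM of Gucy2c was 0.648%, 0.526% and 0.497% of the summed marker TPM in Dicer LKO, against 0.0883%, 0.0978% and 0.0430% in controls, a 7.30-fold difference of the means. Cftr gave 8.55-fold in the same way. The sum, 396 ± 40.1 TPM in Dicer LKO and 283 ± 29.1 TPM in controls (SD, n = 3 each), came mostly from Krt8, Krt18, Spp1 and Aqp1, which other liver cells also express. With 5 markers chosen after the data were seen (Krt19, Krt7, Epcam, Cldn4 and Cldn7), the sum was 5.08 ± 1.92 TPM in Dicer LKO and 1.09 ± 0.196 TPM in controls. The ratios were then 2.28-fold for Gucy2c and 2.43-fold for Cftr. Each of the 5 was itself higher in every Dicer LKO library than in any control, so smaller ratios were built into this choice and nothing is read from them. Gucy2c per TPM of these 5 was 0.476, 0.632 and 0.305 in Dicer LKO, against 0.173, 0.330 and 0.117 in controls, with overlapping groups. Cftr per TPM of these 5 was 0.0309, 0.0152 and 0.0225 in Dicer LKO, against 0.00787, 0.0114 and 0.00901 in controls. These Cftr groups did not overlap, but each control value rests on 1 or 2 counts of Cftr. No contrast between the 2 genes is drawn from these values. The part of duct cells in the Gucy2c and Cftr results was not tested.

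**Figure D5:**
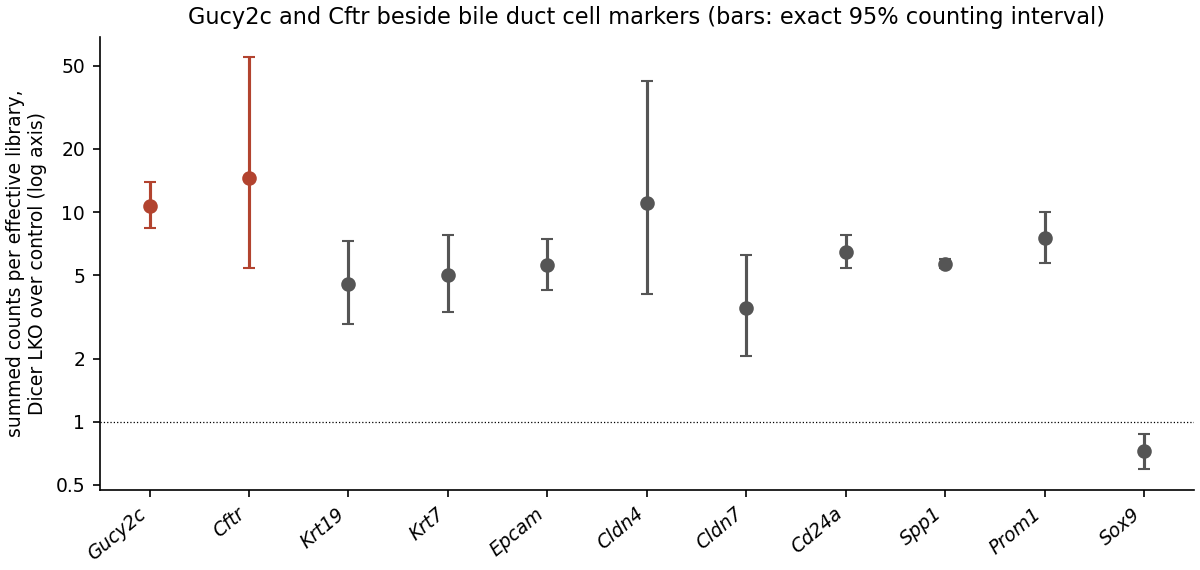
Ratio of summed counts, Dicer LKO over control, scaled for library size and composition (log axis), with exact 95% counting intervals, for Gucy2c, Cftr and 9 bile duct cell markers. Gucy2c (10.7) and Cftr (14.5) lie among or above the markers, which range from Cldn7 (3.51), Krt19 (4.53), Krt7 (5.002) and Epcam (5.58) to Cd24a (6.48), Prom1 (7.51) and Cldn4 (11.02), the intervals of Cftr (5.40 to 54.7) and Cldn4 (4.05 to 42.0) are wide, and Sox9 (0.724) lies below 1.

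Most markers of intestinal epithelium, the tissue with the best known Gucy2c expression, were too low to be tested. Of 24, 5 were tested and 0 called by edgeR, 1 having an unadjusted p under 0.05 and DESeq2 calling 1 higher. The defining factors Cdx1 and Cdx2, with Alpi, Atoh1, Chga, Clca3b, Gpa33 and Spink4, were at 0 in all 6 libraries. The summed TPM of the list was 32.4 to 51.0 in Dicer LKO and 26.2 to 36.3 in controls, mostly Fabp2 and Tff3. Tff3, a mucosal peptide, was higher in all 3 Dicer LKO libraries without being called (log2 fold change 2.49, adjusted p = 0.125, edgeR). Of 11 tested factors reported to bind the Gucy2c or Cftr promoter, 0 were called by edgeR and 3 had an unadjusted p under 0.05, DESeq2 calling 1 lower. Over all genes tested, 21.0% had an unadjusted p under 0.05 (edgeR), so the counts of both lists are near that share.

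Cells of other kinds that can express Npr1, Npr2, Prkg1 or Pde5a were also followed through their markers. All 19 stellate cell and fibroblast markers were tested, 14 had a positive log2 fold change and the median was 0.62. Of them 9 were higher in every Dicer LKO library than in any control and 2 lower in every one, and Lum (2.19), Pdgfra (1.36) and Cygb (1.01) were called higher, with a summed TPM of 204 to 235 in Dicer LKO and 166 to 185 in controls. An unadjusted p under 0.05 (edgeR) was found for 12 of the 19, and DESeq2 called 9 higher and 0 lower. Of 8 smooth muscle markers tested, 0 were called by edgeR or DESeq2 and 1 had an unadjusted p under 0.05, and their summed TPM was 47.6 to 58.8 in Dicer LKO and 46.9 to 87.0 in controls. Of 16 endothelial markers, 1 was called higher (Vwf), with a summed TPM of 155 to 164 in Dicer LKO and 129 to 156 in controls. Of these 16, 6 were higher in every Dicer LKO library than in any control and 1 lower in every one. An unadjusted p under 0.05 (edgeR) was found for 6, and DESeq2 called 4 higher and 0 lower. All 15 macrophage and Kupffer cell markers had a positive log2 fold change, with a median of 0.80, and 7 were higher in every Dicer LKO library than in any control. None of the 15 was called by edgeR, 8 having an unadjusted p under 0.05, and DESeq2 called 3 higher. Their summed TPM was 279 to 394 in Dicer LKO and 154 to 312 in controls. Of all genes tested, 0.741% were called higher by edgeR and 3.12% by DESeq2, and 21.0% had an unadjusted p under 0.05 (edgeR). In every Dicer LKO library, 12.7% lay higher than in any control and 15.4% lower. The 2 stellate cell and fibroblast markers lower in every one are near that last share. What cells of these kinds contribute to the 7 genes was not tested.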

How the data were processed

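RNA of whole liver was sequenced in 6 samples, grouped by the genotype in the labels. Per the file headers, each deposited table holds RSEM-style expected counts and TPM, which the authors computed. CASAVA, Bowtie and the build hg19 appear in the submitters' processing notes, without versions, although the gene identifiers are mouse; which program counted the reads, on which mouse annotation and strand, is not given in the sources used here. A table of the whole series (6 columns of values) was not used.

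Expected counts were rounded, filtered with filterByExpr, scaled by TMM and tested by edgeR's quasi-likelihood test (robust, genotype as the only term; edgeR 4.0.16, R 4.3.3). Calls used a Benjamini-Hochberg adjusted p under 0.05 over all 14314 genes. The pipeline was tested on simulated data. Count ratios used TMM-scaled totals; their exact 95% intervals and the floors of 3 counts cover counting error only. Totals of 14141973 to 25049749 counts per sample set the precision. Alternatives were DESeq2 1.42.0, limma 3.58.1 on log2(TPM + 0.1), library totals, no filter, a term for heart muscle marker level, the replicate number as a block, and leaving out each library.

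The 7 members, all lists and all tests were chosen with earlier results of these data known. By rule, the text names the members. From each pathway list it names every called gene or, where fewer than 2 were called, the 2 with the highest mean TPM. From the marker lists used in the report it names up to 4 called genes, with the same fallback. The fallback was not applied to hepatocyte, smooth muscle, heart muscle, endothelial and macrophage markers or to the factors reported to bind the promoters. Other genes were named after their values were seen. UTRs are the longest annotated per gene. The main fit did not pair samples by replicate number. Correlations of same-numbered deviations from the group means were 0.109, 0.065 and −0.096 over 14314 genes, and those of differently numbered samples −0.162 to 0.105. With 3 samples per group, these values cannot show whether the samples were paired.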

Additional observations from a re-analysis of the deposited data

How the results depend on the processing

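The log2 fold change of Gucy2c, chosen from this contrast and so only described, ranged over the settings from 2.90 (limma on TPM) to 3.78 (without control replicate 2). Of the 3 members called, the number past the threshold was 2 with library totals (Cftr lost), 2 with limma on TPM (Cftr lost), 1 with the heart muscle term, which is set mainly by control 3 and its muscle genes shared with skeletal muscle, such as Ckm (Cftr and Npr2 lost), and 1 to 2 when a library was left out. DESeq2, no filter and the replicate block kept all 3; the block gave 245 calls in all, 0 of the pathway genes, and log2 fold changes of 3.50 for Gucy2c, 3.72 for Cftr and −1.34 for Npr2. The log2 fold change of Cftr was 0.96 with limma on TPM, that of Pde5a −0.040, that of Gucy2c 2.90, and that of Prkg1 0.40 with the heart muscle term; without the filter Prkg2 gave −1.22 (SE 0.86). The cause of these shifts was not tested, except that the pseudocount of 0.1 TPM exceeds the Cftr level in controls. The Gucy2c share of receptor transcript in Dicer LKO was 22.4% in TPM and 27.2% in CPM, which ignores gene length. Per duct marker, Gucy2c was 7.30-fold and Cftr 8.55-fold over all markers, and 2.28-fold and 2.43-fold over the 5 chosen after seeing the data. Those 5 were all higher in Dicer LKO, so the smaller ratios follow from the choice.

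Calls over all genes numbered 185, with 57.3% higher. They were 103 with library totals (48.5% higher), 1114 with DESeq2 (44.3%), 422 without the filter (49.1%), 23 with the heart muscle term (60.9%), and 23 to 389 when a library was left out. The extremes were without control 3 (23, 65.2% higher) and without control 1 (389, 19.5% higher). Of the pathway genes, 3 were called with DESeq2 (Kcnn4, Kcne3 and Rgs2), 1 without the filter (Kcnn4), and 0 to 1 when a library was left out, the 1 being Nppa without Dicer LKO 3, which leaves that group at 0 counts. Low counts limit Cftr, with 4 counts in all controls together, Prkg2 and the ligands.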
